A study of Drosophila melanogaster with 4 samples.

Results

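The nuclear tRNA genes of Drosophila melanogaster were examined as sites of the RNA helicase Maleless (MLE) in early male embryos. They were taken as the RefSeq Release 6 genes of the X and autosome arms whose symbol begins with tRNA:, which gave 295 of the 17684 genes, among them 5 annotated pseudogenes. A gene was counted as having a peak when the midpoint of a called MLE peak lay in its span or within 500 bp of it. Their median length was 73 bp, and they lay in 161 loci when genes less than 2000 bp apart on an arm were joined. They numbered 100 on 2R, 79 on 3R, 49 on 3L, 41 on 2L and 26 on the X, with 0 on chromosome 4.

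Transfer RNAs carry amino acids to the ribosome, and each pairs with codons through its anticodon. Their genes are transcribed by RNA polymerase III from promoter elements inside the gene, which the factor TFIIIC binds before it places TFIIIB upstream. Early fly embryos run on maternal products until zygotic transcription starts at the maternal to zygotic transition. MLE is known as the helicase that remodels the roX RNAs of the male dosage compensation complex on the X. In a symbol such as tRNA:Ala-TGC-1-1 the fields give the amino acid, the anticodon in DNA letters, the mature sequence and the copy, so that genes alike in the first 3 fields share a mature sequence by name.

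MLE was mapped by CUT&RUN, in which nuclease tethered through an antibody cuts DNA free next to the bound protein, and the freed DNA is sequenced. A rat antibody against MLE was used on whole embryos. There were 4 peak lists, 1 for each group. They came from embryos aged 2-4 h of mothers with MTD-GAL4 and UAS-CLAMPRNAi[val22], from embryos aged 2-4 h of MTD-GAL4>GFPRNAi control mothers, and from embryos aged 0-2 h of the same CLAMP RNAi and control mothers. MTD-GAL4 drives expression in the maternal germline, so the depletion concerns the maternal supply of CLAMP, a protein that binds GA repeats. Male embryos of each group came from crosses with meiotic drive stocks. The titles call both 2-4 h samples pre-transition, whereas the design text of the series calls that age post-transition.

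The lists on the arms held 15890 peaks in 2-4 h CLAMP RNAi, 25026 in 2-4 h control, 22489 in 0-2 h CLAMP RNAi and 28246 in 0-2 h control. Median peak width was 245 bp in 2-4 h CLAMP RNAi and 364 to 375 bp in the others. Read depth per list is not given in the sources used here, and a short list of narrow peaks cannot be told apart from an effect of the RNAi. With 1 list per group there was no replicate check and no test between groups. Intervals are 95% Clopper-Pearson or, for differences, Newcombe intervals, and cover counting error over genes or peaks only. The RNAi target Clamp had 1 peak within 500 bp of its span in 2-4 h CLAMP RNAi and 2 in each other list, which says nothing of its expression.

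MLE peaks lay at tRNA genes in each of the 4 lists, more often than at the mean of shifted positions of the same size. A peak was found at 57 tRNA genes in 2-4 h CLAMP RNAi, or 19.3% (14.98% to 24.3%). The 2-4 h control list had a peak at 145, or 49.2% (43.3% to 55.0%). At 0-2 h there were 104 with CLAMP RNAi, or 35.3% (29.8% to 41.0%), and 128 in control, or 43.4% (37.7% to 49.3%). Among all RefSeq genes of the arms the shares were 30.9% in 2-4 h CLAMP RNAi, 43.2% in 2-4 h control, 38.3% in 0-2 h CLAMP RNAi and 46.5% in 0-2 h control. Those genes have a median span of 1710 bp, so a tRNA gene offers a far shorter target, and its share alone shows no preference.

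The comparison at equal length moved all tRNA genes of an arm together along it, in 100 steps of 10 kb up to 500 kb to either side. The shifted positions had a peak at a mean of 38.5 in 2-4 h CLAMP RNAi (range 20 to 62), 60.2 in 2-4 h control (32 to 79), 55.0 in 0-2 h CLAMP RNAi (34 to 79) and 68.7 in 0-2 h control (46 to 93). The observed number was 1.48 times that mean in 2-4 h CLAMP RNAi, 2.41 times in 2-4 h control, 1.89 times in 0-2 h CLAMP RNAi and 1.86 times in 0-2 h control. It lay above the range of shifted positions in 3 lists and inside it in 2-4 h CLAMP RNAi. With a window of 200 bp it lay above the range in each list, at 39 genes in 2-4 h CLAMP RNAi (shifted 6 to 35), 104 in 2-4 h control (12 to 42), 75 in 0-2 h CLAMP RNAi (11 to 40) and 91 in 0-2 h control (19 to 52).

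**Figure D1:**
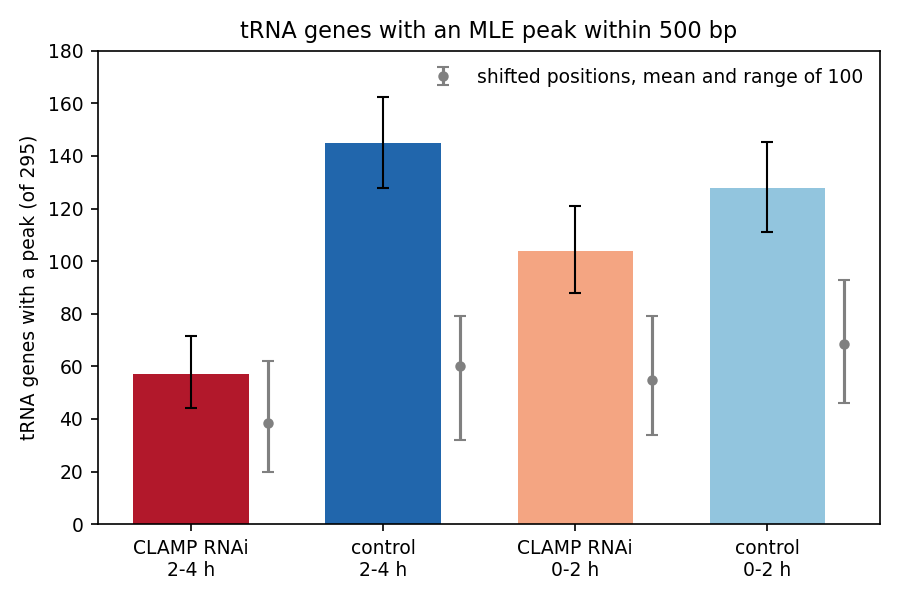
Number of tRNA genes (y axis, of 295) with an MLE peak within 500 bp in the 4 lists (x axis); bars give the number with its 95% Clopper-Pearson interval, grey points the mean and range at 100 shifted positions. The 2-4 h control list had 145 genes against 60.2 at shifted positions, and 2-4 h CLAMP RNAi, with 57, lay inside its shifted range of 20 to 62.

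Peak midpoints were denser close to tRNA genes than in their wider neighbourhood. Within 100 bp of the centre of the nearest tRNA gene lay 17 midpoints in 2-4 h CLAMP RNAi, a density of 0.291 per kb. In 2-4 h control there were 58, or 0.991 per kb, in 0-2 h CLAMP RNAi 37, or 0.632 per kb, and in 0-2 h control 51, or 0.872 per kb. Between 2000 and 5000 bp away the densities were 0.107, 0.202, 0.179 and 0.227 per kb in the same order of lists. The density near the centre was thus 2.71 times that of the distant stretch in 2-4 h CLAMP RNAi, 4.90 times in 2-4 h control, 3.54 times in 0-2 h CLAMP RNAi and 3.84 times in 0-2 h control. From 200 to 500 bp the ratio was 1.05 in 2-4 h CLAMP RNAi, 0.729 in 2-4 h control, 0.825 in 0-2 h CLAMP RNAi and 0.841 in 0-2 h control. A tRNA gene lay whole within a peak in 20 cases in 2-4 h CLAMP RNAi, 72 in 2-4 h control, 45 in 0-2 h CLAMP RNAi and 71 in 0-2 h control. In 2-4 h CLAMP RNAi the density was much the same out to 150 bp from the centre. It was 0.274 per kb from 0 to 50 bp, 0.307 from 50 to 100 bp and 0.264 from 100 to 150 bp. A midpoint in the span itself was found at 7 genes in that list, inside the shifted range of 0 to 7. The other lists lay above their ranges. They had 22 in 2-4 h control (0 to 11), 20 in 0-2 h CLAMP RNAi (0 to 10) and 30 in 0-2 h control (2 to 10).

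**Figure D2:**
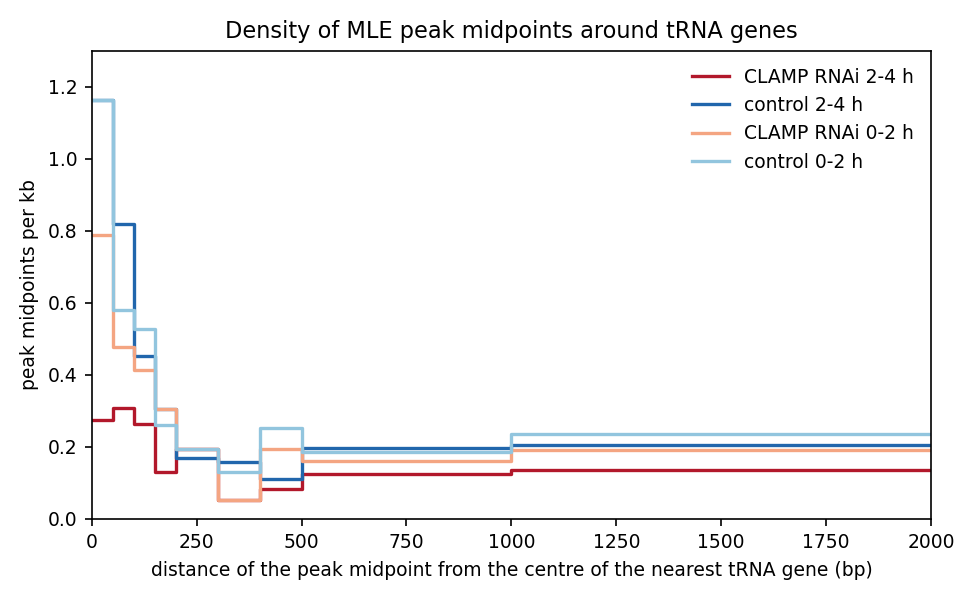
Density of peak midpoints (y axis, per kb) by distance from the centre of the nearest tRNA gene (x axis, bp), as steps over the distance bins, 1 line per list. Each line is highest in the first 100 bp (0.991 per kb in 2-4 h control, 0.291 per kb in 2-4 h CLAMP RNAi) and from 200 to 500 bp as a whole lies at 0.729 to 1.05 times its distant level.

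Neighbouring tRNA genes often shared a peak, so genes were not independent of each other. The 57 genes of 2-4 h CLAMP RNAi rested on 42 peaks, the 145 of 2-4 h control on 96, the 104 of 0-2 h CLAMP RNAi on 73 and the 128 of 0-2 h control on 94. Of the 161 loci, 37 had a peak in 2-4 h CLAMP RNAi, 78 in 2-4 h control, 62 in 0-2 h CLAMP RNAi and 79 in 0-2 h control. Among the 91 genes that stand alone, 19 had a peak in 2-4 h CLAMP RNAi, 32 in 2-4 h control, 26 in 0-2 h CLAMP RNAi and 35 in 0-2 h control. That is 1.52, 1.70, 1.55 and 1.66 times the mean of shifted positions in the same order, above the shifted range in both control lists and inside it in both CLAMP RNAi lists (5 to 20 at 2-4 h and 8 to 27 at 0-2 h). The 127 genes in groups of 2 or 3 had a peak in 23, 72, 51 and 63 cases, or 1.43, 2.87, 2.19 and 2.16 times that mean, inside the range in 2-4 h CLAMP RNAi (6 to 33) and above it elsewhere. The 77 genes in loci of 4 or more had a peak in 15, 41, 27 and 30 cases, or 1.51, 2.53, 1.81 and 1.63 times that mean. Only 2-4 h control lay above the range there (4 to 28). The ranges of the others were 1 to 23 in 2-4 h CLAMP RNAi, 4 to 30 in 0-2 h CLAMP RNAi and 7 to 36 in 0-2 h control.

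Peaks were also present at tRNA genes far from genes of other kinds. Of the 75 tRNA genes with no other kind of gene within 1000 bp, 18 had a peak in 2-4 h CLAMP RNAi, 40 in 2-4 h control, 29 in 0-2 h CLAMP RNAi and 36 in 0-2 h control. These numbers were 1.77, 2.43, 1.97 and 1.97 times the mean of shifted positions. They lay inside the shifted range in 2-4 h CLAMP RNAi (2 to 23) and 0-2 h control (8 to 37), and above it in the other lists. For the 138 tRNA genes that lie inside another gene the numbers were 23, 60, 40 and 54, or 1.35, 2.23, 1.63 and 1.74 times that mean, inside the range in 2-4 h CLAMP RNAi (6 to 30) and above it elsewhere.

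Peaks at tRNA genes were mostly of ordinary strength, with a small number among the strongest of each list. Strength is given as the percentile of the authors' peak score within its own list, because scores of different lists share no scale. Peaks with tied scores all take the highest of their ranks, which raises percentiles where ties are many. The median percentile was 61.9% over the 42 peaks of 2-4 h CLAMP RNAi, 45.0% over the 96 of 2-4 h control, 48.6% over the 73 of 0-2 h CLAMP RNAi and 45.4% over the 94 of 0-2 h control. The median score of the 42 peaks was 32, the same as that of their whole list. The 61.9% therefore reflects ties and does not mark them as stronger than its typical peak. Median scores in the other lists were 58 against 69 in 2-4 h control, 56 against 61 in 0-2 h CLAMP RNAi and 42 against 47.5 in 0-2 h control. In the top 10% of their list lay 7 of these peaks in 2-4 h CLAMP RNAi, 13 in 2-4 h control, 8 in 0-2 h CLAMP RNAi and 11 in 0-2 h control. The share in 2-4 h control was 13.5% (7.41% to 22.0%), an interval that includes the 10.1% of all peaks there. Peaks in the top 1% numbered 2, 5, 5 and 6 in the same order.

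The strongest tRNA peak lay over a pair of alanine tRNA genes on 2R. tRNA:Ala-TGC-1-1 at 17391774 to 17391845 and tRNA:Ala-TGC-2-1 at 17392215 to 17392286 shared a peak from 17391646 to 17392414 in each of the 4 lists, with no other kind of gene within 1000 bp. Its percentile was 99.8% in 2-4 h CLAMP RNAi (score 4044), 99.96% in 2-4 h control (score 168285), 99.95% in 0-2 h CLAMP RNAi (score 102267) and 99.97% in 0-2 h control (score 99453). The interval was the same to the base with and without the RNAi and at both ages.

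A trio of threonine tRNA genes on 3R ranked next in 2-4 h CLAMP RNAi. tRNA:Thr-CGT-1-1 at 20890698 to 20890769 and tRNA:Thr-CGT-1-2 at 20891122 to 20891193 lay under a peak from 20890522 to 20891326 in each list. Its percentile was 99.1% in 2-4 h CLAMP RNAi, 99.4% in 2-4 h control, 99.2% in 0-2 h CLAMP RNAi and 99.8% in 0-2 h control. The third copy, tRNA:Thr-CGT-1-3 at 20891658 to 20891729, had its own peak from 20891482 to 20891862, with percentiles of 98.0%, 99.3%, 99.2% and 99.4% in the same order. It was 1 of 3 tRNA genes whose span held a peak midpoint in each of the 4 lists.

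Other alanine tRNA genes on 2R lay in the same upper range. tRNA:Ala-CGC-1-1, tRNA:Ala-CGC-1-2 and tRNA:Ala-CGC-1-3 are inside the gene gol. The copies tRNA:Ala-CGC-1-2 and tRNA:Ala-CGC-1-3 shared a peak from 25076592 to 25077254 in 2-4 h CLAMP RNAi and to 25077255 in the other lists, at percentiles of 97.0% in 2-4 h CLAMP RNAi, 99.5% in 2-4 h control, 99.5% in 0-2 h CLAMP RNAi and 99.7% in 0-2 h control. tRNA:Ala-CGC-1-1 at 25076005 to 25076076 also held a midpoint in its span in each list, at percentiles of 90.6%, 98.9%, 96.1% and 97.6%. A lone glycine tRNA gene on 2L, tRNA:Gly-GCC-1-3 at 7872849 to 7872919, had a peak from 7872521 to 7872901 in each list. There the percentiles were 97.4% in 2-4 h CLAMP RNAi, 99.9% in 2-4 h control, 99.8% in 0-2 h CLAMP RNAi and 99.7% in 0-2 h control, and the midpoint lay 173 bp below the gene's centre. At tRNA:Thr-TGT-2-1 inside sprt on 2R the midpoint fell within 21 bp of the centre in each list, at percentiles of 73.4%, 90.8%, 88.1% and 87.6%.

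Peaks were found at 31 tRNA genes, or 10.5%, in each of the 4 lists, and at 115, or 39.0%, in none. Over all RefSeq genes these shares were 21.9% and 39.2%. The 31 genes lay in 21 loci, and 13 of the genes were inside another gene and 1 on the X. The strongest peak had the same start and end in the 4 lists, to within 5 bp, at 9 of the 31. Their median percentile was 75.5% in 2-4 h CLAMP RNAi, 86.5% in 2-4 h control, 85.7% in 0-2 h CLAMP RNAi and 87.6% in 0-2 h control. For genes with a peak in fewer lists it was 42.1%, 35.5%, 45.1% and 40.5%.

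**Figure D3:**
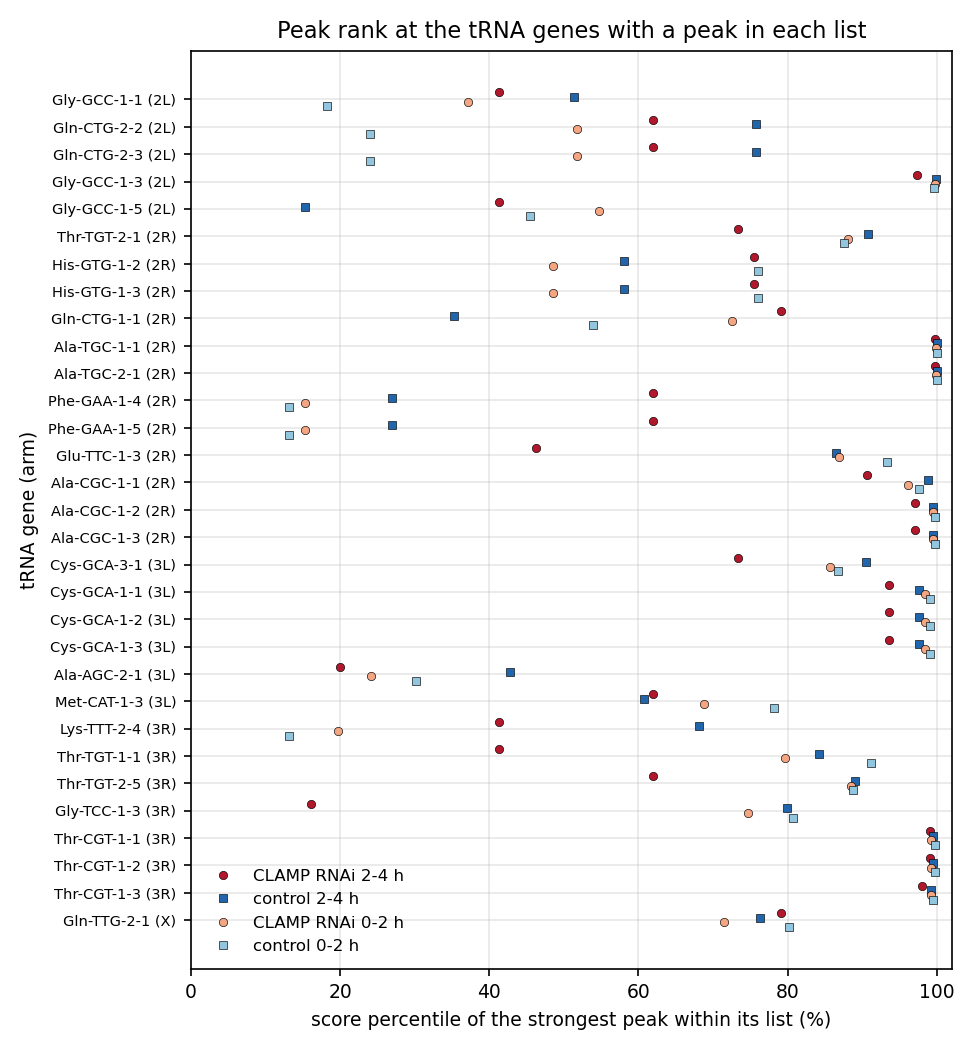
Score percentile within its list (x axis, %) of the strongest peak at each of the 31 tRNA genes with a peak in each list (y axis, with the arm), 1 symbol per list. The Ala-TGC, Ala-CGC, Thr-CGT and Gly-GCC-1-3 genes lie at the right edge in each list (90.6% or higher), whereas others, such as Gly-TCC-1-3, spread widely.

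Genes with the same mature tRNA, going by their symbols, often differed in whether they had a peak. Of 25 mature sequences with at least 5 copies, 16 had peaks at some copies and not at others in 2-4 h CLAMP RNAi, 22 in 2-4 h control, 20 in 0-2 h CLAMP RNAi and 22 in 0-2 h control. In the same order, no copy had a peak in 9, 2, 4 and 2 of them, and every copy in 0, 1, 1 and 1. With a peak at 19.3% to 49.2% of all tRNA genes, mixed families of this size are the likely outcome. The count therefore cannot show whether copies differ more than tRNA genes at large. The 13 copies of Gly-GCC-1 lay in 11 loci, and 4 had a peak in 2-4 h CLAMP RNAi, 9 in 2-4 h control, 7 in 0-2 h CLAMP RNAi and 11 in 0-2 h control. Of the 13 copies of Lys-CTT-1, 4, 6, 3 and 6 had a peak. At the ends of the range, Thr-TGT-2 had a peak at 2 of 5 copies in 2-4 h CLAMP RNAi and at 5 of 5 in each other list, and Glu-CTC-3 had none at its 9 copies in any list. These families were picked after their values were seen. How reads that match several copies were placed is not given in the sources used here, and its part in these differences was not tested.

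By the amino acid carried, the share of genes with a peak ranged widely. In 2-4 h control it was highest for tyrosine (9 of 10 genes), cysteine (6 of 7) and glutamine (10 of 12), and lowest, apart from the lone selenocysteine gene, for elongator methionine (1 of 6) and serine (4 of 20). For tyrosine tRNA genes the numbers were 2 in 2-4 h CLAMP RNAi, 9 in 2-4 h control, 4 in 0-2 h CLAMP RNAi and 8 in 0-2 h control. Cysteine tRNA genes had 5, 6, 5 and 5, and 3 of them share a strong peak inside Cht7. Aspartate tRNA genes, 14 in all, had 0 in 2-4 h CLAMP RNAi, 9 in 2-4 h control, 7 in 0-2 h CLAMP RNAi and 9 in 0-2 h control. With 1 to 26 genes per amino acid in few loci, these counts describe the lists and no order among amino acids was tested.

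**Figure D4:**
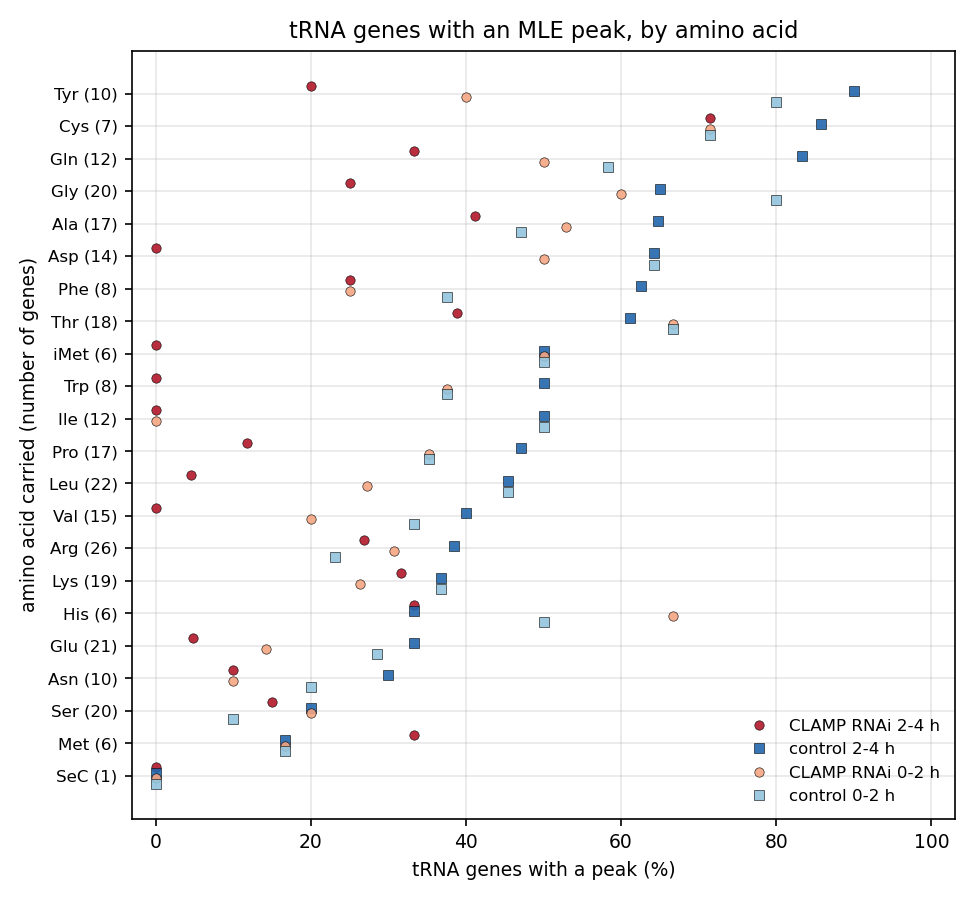
Share of tRNA genes with an MLE peak within 500 bp (x axis, %) by amino acid carried, with the number of genes in brackets (y axis), 1 symbol per list, ordered by 2-4 h control. In 2-4 h control tyrosine had 9 of 10 genes with a peak and serine 4 of 20, and isoleucine had 0 of 12 in both CLAMP RNAi lists against 6 of 12 in both control lists.

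Isoleucine tRNA genes had no peak in either CLAMP RNAi list, with 0 of 12 in each, against 6 of 12 in 2-4 h control and 6 of 12 in 0-2 h control. Of these 6, 5 lie in 1 cluster on 2R at 13430282 to 13432794 inside the gene ATP8A, which holds 7 tRNA genes. That cluster had a peak at 0 genes in 2-4 h CLAMP RNAi and 6 in 2-4 h control, and at 0 genes in 0-2 h CLAMP RNAi and 6 in 0-2 h control. Of the other amino acids, the lone selenocysteine gene had no peak in any list and each of the rest had a peak in at least 1 CLAMP RNAi list. The strongest control peak per gene of the cluster had percentiles of 5.18% to 32.5% in 2-4 h control and 8.19% to 35.1% in 0-2 h control. At tRNA:Ile-AAT-1-6 and tRNA:Ile-AAT-1-7 a shared peak had a percentile of 32.5% in 2-4 h control and 35.1% in 0-2 h control. The other gene of the 6, tRNA:Ile-TAT-1-1, lies on 3L at 769503 to 769600. Its percentiles were 5.18% in 2-4 h control and 45.4% in 0-2 h control. Each control peak at these isoleucine genes scored below the median of its list. Of all such control peaks, 20.6% were found with CLAMP RNAi at 2-4 h and 34.4% at 0-2 h. Absence from the CLAMP RNAi lists was thus common for peaks of this rank. Whether isoleucine genes differ from other peaks of this rank was not tested.

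The largest cluster of tRNA genes, 8 genes at 2R 19725620 to 19729353 with initiator methionine and glutamate tRNAs, had a peak at 0 genes in 2-4 h CLAMP RNAi and 5 in 2-4 h control. At 0-2 h it had 4 with CLAMP RNAi and 5 in control. A cluster of 7 arginine and serine tRNA genes on the X at 14014814 to 14017284 had none in any list. The cluster of 6 genes at 3L 3095737 to 3097590 inside Cht7, with cysteine and lysine tRNAs, had a peak at 6 genes in 2-4 h CLAMP RNAi, 4 in 2-4 h control, 5 in 0-2 h CLAMP RNAi and 5 in 0-2 h control. The 2-4 h difference rests on peak bounds and the midpoint rule. A wide 2-4 h control peak ran from 3095558 to 3096574, with its midpoint outside the window of tRNA:Lys-CTT-1-12 and tRNA:Lys-CTT-1-13. Over that stretch 2-4 h CLAMP RNAi had separate peaks, from 3095557 to 3096195 and from 3096468 to 3096667.

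Whether MLE sites at tRNA genes persisted without maternal CLAMP was addressed by comparing the lists of an age. At 2-4 h, 44 of the 145 genes with a control peak also had a CLAMP RNAi peak, or 30.3% (23.0% to 38.5%), against 58.2% of all RefSeq genes with a control peak. A CLAMP RNAi peak alone was found at 13 genes and a control peak alone at 101. At 0-2 h, 85 of 128 genes were found in the CLAMP RNAi list, or 66.4% (57.5% to 74.5%), against 70.1% of all genes. Here 19 genes had a CLAMP RNAi peak alone and 43 a control peak alone. In the other direction, 77.2% (64.2% to 87.3%) of the tRNA genes with a 2-4 h CLAMP RNAi peak had a control peak, against 81.4% of all genes, and 81.7% (72.9% to 88.6%) of those with a 0-2 h CLAMP RNAi peak, against 85%.

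Long genes can hold several peaks, so peaks of like strength were compared as well, and the share found with CLAMP RNAi did not differ from that of other peaks beyond counting error. At 2-4 h, 30 of 96 control peaks at tRNA genes shared a base with a CLAMP RNAi peak, or 31.3% (22.2% to 41.5%). All 2-4 h control peaks, weighted to the same score deciles, gave 39.9%, within that interval. At 0-2 h the number was 60 of 94, or 63.8% (53.3% to 73.5%), against a weighted 56.9%, again within it. Of the control peaks at tRNA genes in the top 10% of scores, 10 of 13 were found with CLAMP RNAi at 2-4 h and 11 of 11 at 0-2 h, against 94.2% and 99.9% of all such peaks. The 3 not found at 2-4 h lay at tRNA:Thr-TGT-2-2, tRNA:Thr-TGT-2-3 and tRNA:Thr-TGT-2-4.

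The strongest 2-4 h control sites without a 2-4 h CLAMP RNAi peak were at threonine and initiator methionine tRNA genes. tRNA:Thr-TGT-2-2 at 2R 11399770 to 11399841 had none in 2-4 h CLAMP RNAi and a percentile of 94.8% in 2-4 h control, with 78.5% in 0-2 h CLAMP RNAi and 87.2% in 0-2 h control. The nearby copy tRNA:Thr-TGT-2-3 had none in 2-4 h CLAMP RNAi and 93.0% in 2-4 h control, with 89.4% in 0-2 h control. In 0-2 h CLAMP RNAi its strongest peak, at 89.7%, was the one over the adjacent copy tRNA:Thr-TGT-2-4. tRNA:iMet-CAT-1-3 inside hng3 on 3L had none in 2-4 h CLAMP RNAi and 91.4% in 2-4 h control, with 92.3% in 0-2 h CLAMP RNAi and 91.6% in 0-2 h control. Its control peak from 743233 to 743613 shared 8 bases with a weak 2-4 h CLAMP RNAi peak from 743041 to 743240, at 15.8%, whose midpoint lay outside the window. These sites were therefore present in 3 lists, including CLAMP RNAi at the earlier age. Median width of peaks at tRNA genes was 245 bp in 2-4 h CLAMP RNAi and 368 bp in 2-4 h control, and the part of the shorter list in these absences was not tested.

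At 0-2 h the strongest control sites without a CLAMP RNAi peak were weaker. tRNA:Arg-ACG-1-4 on 2R had none in 0-2 h CLAMP RNAi and a percentile of 68.3% in 0-2 h control, while peaks at another position within 500 bp were present in both 2-4 h lists. tRNA:Leu-CAG-1-5 and tRNA:Leu-CAG-1-6 inside Sarm on 3L shared a peak in both control lists, at 58.1% in 2-4 h control and 66.2% in 0-2 h control, and had none in either CLAMP RNAi list. They are among the 23 tRNA genes, or 7.80%, with a peak in both control lists alone, a pattern that 3.59% of all genes showed. Ranked by the lower of the 2 control percentiles, they come first. tRNA:Asp-GTC-1-6 inside Sema1a, at 42.6% in 2-4 h control and 60.7% in 0-2 h control, was another.

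Sites of the CLAMP RNAi lists alone were few. A peak in both CLAMP RNAi lists and none in control was found at 3 tRNA genes, or 1.02%, against 0.560% of all genes. These were tRNA:Lys-TTT-1-1, tRNA:Asn-GTT-1-7 and tRNA:Leu-CAG-1-1, each at a percentile of 15.8% in 2-4 h CLAMP RNAi and at 15.3% to 45.1% in 0-2 h CLAMP RNAi. Of tRNA genes with a peak in 2-4 h CLAMP RNAi and none in 2-4 h control, tRNA:Ser-CGA-1-4 inside hts had the highest percentile, 61.9%. The next was 42.9%, shared by tRNA:Lys-CTT-1-12 and tRNA:Lys-CTT-1-13. The scores of these peaks were 32 and 27, and 32 is the median score of that list, so ties widen the gap in percentile. The peak at the lysine genes, from 3096468 to 3096667, overlapped a strong 2-4 h control peak from 3095558 to 3096574, at 97.6%. That control peak had its midpoint outside the window of both genes, so the lysine site was not one of CLAMP RNAi alone. At 0-2 h the highest were 65.7%, shared by tRNA:Ala-AGC-2-7 and tRNA:Ala-AGC-2-8 on 3R, and 59.9% at tRNA:Trp-CCA-1-1 inside Lrt.

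The lower number with CLAMP RNAi at 0-2 h depended on list length. With each list trimmed by score to the 15890 peaks of the shortest, 83 tRNA genes had a peak in 0-2 h CLAMP RNAi and 65 in 0-2 h control, the opposite order. With scores of at least 50 the numbers were 64 in 0-2 h CLAMP RNAi and 58 in 0-2 h control. That cut-off is not like for like, since scores share no scale and the median score was 61 in 0-2 h CLAMP RNAi and 47.5 in 0-2 h control. At 2-4 h the direction held at equal length, with 57 genes in CLAMP RNAi and 83 in control, a smaller difference of -26 genes against -88 in whole lists.

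Between ages, the result for control sites at tRNA genes depended on the direction of the comparison. A 2-4 h control peak was found at 109 of the 128 genes with a 0-2 h control peak, or 85.2% (77.8% to 90.8%), against 76% of all genes. As peaks, 76 of 94 0-2 h control peaks at tRNA genes were found in 2-4 h control, or 80.9% (71.4% to 88.2%). The same share over all 0-2 h control peaks, weighted to those score deciles, was 63.7%, below that interval. Taken the other way, 74 of 96 2-4 h control peaks at tRNA genes were found in 0-2 h control, or 77.1% (67.4% to 85.0%), and the weighted share of 72.2% lay inside the interval. In control, 36 genes had a 2-4 h peak alone and 19 a 0-2 h peak alone. In the other direction, 109 of the 145 genes with a 2-4 h control peak had a 0-2 h control peak, or 75.2% (67.3% to 82.0%), against 81.8% of all genes. With CLAMP RNAi, 39 of 104 genes with a 0-2 h peak had a 2-4 h peak, or 37.5% (28.2% to 47.5%), against 62.3% of all genes. Of the 57 with a 2-4 h CLAMP RNAi peak, the same 39 are 68.4% (54.8% to 80.1%), against 77.3% of all genes. Among CLAMP RNAi peaks of like strength the weighted share lay inside the interval, with 30 of 73 peaks at tRNA genes of the 0-2 h list found at 2-4 h, or 41.1% (29.7% to 53.2%), and a weighted share of 43.0% over all peaks. These comparisons reuse the lists compared above and are not independent of them.

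On the X, the chromosome on which the dosage compensation complex acts, a smaller share of tRNA genes had a peak than on the autosomes in each list, and the interval of the difference included 0 in both CLAMP RNAi lists. The X held 3 of 26 tRNA genes with a peak against 54 of 269 on autosomes in 2-4 h CLAMP RNAi, a difference of -8.54 points (-17.7 to 9.44). In 2-4 h control it was 5 against 140, a difference of -32.8 points (-45.1 to -13.2). At 0-2 h it was 5 against 99 with CLAMP RNAi, or -17.6 points (-29.8 to 1.88), and 6 against 122 in control, or -22.3 points (-35.7 to -2.42). Peaks as a whole were denser on the X, at 261 per Mb against 171 per Mb on autosomes in 2-4 h control. The X numbers were 0.594, 0.672, 0.702 and 0.734 times the mean of shifted positions on the X, in the order 2-4 h CLAMP RNAi, 2-4 h control, 0-2 h CLAMP RNAi and 0-2 h control, and lay within the shifted ranges. The 26 genes lie in 15 loci, of which 5 had a peak in any list, so the X values rest on few places. The X tRNA gene with a peak in each list was tRNA:Gln-TTG-2-1, at percentiles of 79.1%, 76.2%, 71.5% and 80.2%.

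On each autosome arm the number with a peak exceeded the mean of shifted positions in each list. The ratios ran from 1.43 on 3R to 1.79 on 2L in 2-4 h CLAMP RNAi, from 2.12 on 3L to 3.44 on 2L in 2-4 h control, from 1.73 on 3L to 3.10 on 2L in 0-2 h CLAMP RNAi, and from 1.57 on 3R to 2.62 on 2L in 0-2 h control. In 2-4 h control the number lay above the shifted range on each of these 4 arms, for example at 27 of 41 genes on 2L, where shifted positions gave 1 to 16. In 2-4 h CLAMP RNAi it lay inside the range on each, with 9 on 2L (0 to 14), 19 on 2R (4 to 25), 11 on 3L (0 to 15) and 15 on 3R (3 to 20). In 0-2 h CLAMP RNAi 3L was inside its range, at 15 (1 to 18). In 0-2 h control 3L, at 22 (1 to 22), and 3R, at 30 (8 to 31), were inside theirs.

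Other small RNA genes were compared next, with classes set by symbol. The other RNA polymerase III genes were those of U6 and U6atac snRNA, 7SK, 7SL, RNase P RNA and RNase MRP RNA, 10 in all. Of these, 6 had a peak in 2-4 h CLAMP RNAi, 5 in 2-4 h control, 6 in 0-2 h CLAMP RNAi and 7 in 0-2 h control, and shifted positions gave means of 1.35 to 2.51. The number lay above the shifted range in 2-4 h CLAMP RNAi (0 to 4) and inside it in 2-4 h control (0 to 6), 0-2 h CLAMP RNAi (0 to 7) and 0-2 h control (0 to 7). At 7SLRNA:CR32864 the peak is the one at the neighbouring tRNA:Lys-TTT-2-4, at 41.4%, 68.2%, 19.7% and 13.1% in 2-4 h CLAMP RNAi, 2-4 h control, 0-2 h CLAMP RNAi and 0-2 h control. The U6 genes snRNA:U6:96Aa, snRNA:U6:96Ab and snRNA:U6:96Ac, which encode the snRNA at the catalytic core of the spliceosome, had peaks in each list. Percentiles at snRNA:U6:96Aa were 95.6% in 2-4 h CLAMP RNAi, 97.5% in 2-4 h control, 94.9% in 0-2 h CLAMP RNAi and 96.6% in 0-2 h control. These 3 genes are neighbours on 3R and share peaks. At snRNA:7SKa, whose RNA holds back the elongation factor P-TEFb, the percentiles were 61.9%, 93.9%, 91.1% and 93.3%. RNaseMRP:RNA, snRNA:U6atac and the 7SL gene 7SLRNA:CR42652 had none.

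The 26 other snRNA genes, which serve the same splicing machinery but are mostly transcribed by RNA polymerase II, had a peak in 0, 0, 1 and 3 cases in the same order of lists. A count of 0 of 26 allows a share of up to 13.2% by its Clopper-Pearson interval. The share among tRNA genes was higher by 19.3 points (5.81 to 24.2) in 2-4 h CLAMP RNAi, 49.2 (35.1 to 54.8) in 2-4 h control, 31.4 (15.5 to 37.8) in 0-2 h CLAMP RNAi and 31.9 (13.6 to 41.3) in 0-2 h control. Among 274 snoRNA and scaRNA genes, which guide RNA modification, 25, 38, 34 and 50 had a peak. That is 0.707, 0.673, 0.665 and 0.763 times the mean of shifted positions, inside the shifted range in each list. Among 260 miRNA genes the numbers were 39, 55, 53 and 61, at 1.14, 1.03, 1.10 and 1.01 times that mean, also inside the range. The share of tRNA genes exceeded that of miRNA genes by 28.0 points (20.2 to 35.3) in 2-4 h control and by 4.32 points (-2.03 to 10.5) in 2-4 h CLAMP RNAi, where the interval includes 0. The 96 genes of 5S rRNA, also made by RNA polymerase III but in a tandem array of near-identical copies on 2R, had a peak in 3, 11, 11 and 11 cases, or 0.239, 0.584, 0.675 and 0.486 times the mean of shifted positions, inside the range in each list. How reads from such repeats were placed is not given in the sources used here, and its part in the low count was not tested.

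**Figure D5:**
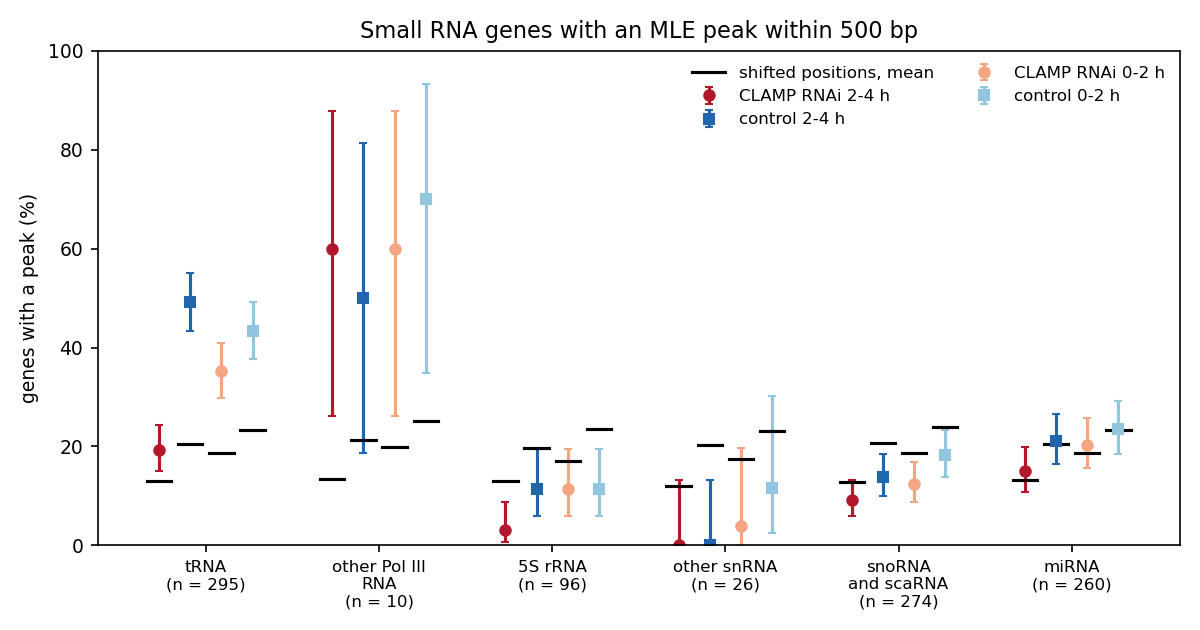
Share of genes with an MLE peak within 500 bp (y axis, %) in 6 classes of small RNA gene (x axis, with the number of genes), 1 symbol per list with its 95% Clopper-Pearson interval; black bars give the mean at shifted positions. The tRNA genes and the 10 other RNA polymerase III genes lie above their bars in each list, whereas the other snRNA and the snoRNA genes lie below.

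Genes that encode the tRNA machinery had no such excess. Of 14 genes for RNA polymerase III subunits and its initiation factors, 2 had a peak in 2-4 h CLAMP RNAi, 4 in 2-4 h control, 3 in 0-2 h CLAMP RNAi and 3 in 0-2 h control, at 0.392, 0.565, 0.478 and 0.391 times the mean of shifted positions. The number lay below the shifted range in 0-2 h control (4 to 12). It lay inside the range in 2-4 h CLAMP RNAi (1 to 10), 2-4 h control (3 to 11) and 0-2 h CLAMP RNAi (2 to 10). Brf, which encodes a subunit of TFIIIB and spans 16505 bp, had 3, 6, 4 and 6 peaks. Of 20 cytoplasmic aminoacyl-tRNA synthetase genes, whose enzymes charge tRNAs, 7, 9, 8 and 10 had a peak, at 0.840, 0.762, 0.742 and 0.781 times the mean of shifted positions. These lay inside the shifted ranges of 3 to 15, 7 to 18, 4 to 17 and 7 to 19 in the same order.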

How the data were processed

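Peak lists were used as the authors deposited them, 1 per group, giving each peak's arm, bounds, name and score. The score is the authors' value for each deposited peak, a whole number of at least 13, used only to rank or filter within a list. Per the submitters' processing notes, the build was dm6, and FastQC, Trim Galore, BWA, Bowtie2, SAMtools, Picard 2.20.2 and MACS2 were used, with no role or order given. Calling threshold, control library and pooling of replicates are not given in the sources used here. Peak names, per the deposited files, refer to sorted alignments with duplicates removed.

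Intervals listed several times were collapsed to their highest score (67 in 2-4 h CLAMP RNAi, 2683 in 2-4 h control, 1548 in 0-2 h CLAMP RNAi and 2519 in 0-2 h control), and peaks of X, 2L, 2R, 3L, 3R and 4 were kept. Genes came from the RefSeq Release 6 table, the same assembly as dm6, without strand or sequence, so distances are unsigned by strand. The planned search for motifs and the planned distance from the 5′ end were not run. Counting was tested on simulated lists with Python 3.11.15, numpy 2.4.6, pandas 2.3.3 and scipy 1.17.1.

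The members and lists were chosen with earlier results of these data known. Genes named follow a rule on score percentile, presence pattern, cluster size and midpoints in the span. Exceptions are marked, and the families by amino acid or mature sequence, the X genes and the genes of other classes were singled out for their counts.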

Additional observations from a re-analysis of the deposited data

Results flagged for a closer look

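In 4 groups of genes the sign of CLAMP RNAi minus control was opposite at the 2 ages. Whether the ages differ was not tested, since each group has a single list.

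For alanine tRNA genes the difference in the number with a peak was -4 at 2-4 h (7 with CLAMP RNAi, 11 in control) and 1 at 0-2 h (9 with CLAMP RNAi, 8 in control). For arginine tRNA genes it was -3 at 2-4 h (7 and 10) and 2 at 0-2 h (8 and 6), with CLAMP RNAi given before control. For serine tRNA genes it was -1 at 2-4 h (3 and 4) and 2 at 0-2 h (4 and 2). Among the other RNA polymerase III RNA genes it was 1 at 2-4 h (6 and 5) and -1 at 0-2 h (6 and 7). Each of these rests on a handful of genes.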

How the results depend on the processing

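In each setting tried, including shifts of 10 to 100 kb, the number of tRNA genes with a peak stayed above the mean of shifted positions in each list. The order of lists below is 2-4 h CLAMP RNAi, 2-4 h control, 0-2 h CLAMP RNAi, 0-2 h control, and the pairwise differences are CLAMP RNAi minus control or 2-4 h minus 0-2 h. With midpoints in the span itself, 7, 22, 20 and 30 genes had a peak, at ratios of 2.50, 4.85, 4.84 and 5.80, and the differences were -15 (2-4 h), -10 (0-2 h), -13 (ages, CLAMP RNAi) and, reversed, -8 (ages, control). There, 18.2% of 2-4 h control genes and 50.0% of 0-2 h control genes had a CLAMP RNAi peak, 20.0% of CLAMP RNAi and 40.0% of control genes recurred at the later age, 3 genes had a peak in each list and 249 in none. A window of 200 bp gave ratios of 2.21, 3.72, 2.97 and 2.86 and 20 genes in each list. A window of 1000 bp gave 88 genes in 2-4 h CLAMP RNAi, ratios of 1.72, 1.52 and 1.49 in the other lists, 38.9% of 2-4 h control genes with a CLAMP RNAi peak, an age difference of 5 in control, 56 genes in each list and 70 in none. Counting any base of the peak gave a ratio of 2.12 in 2-4 h control. Scores of at least 50 left 18, 81, 64 and 58 genes, a ratio of 2.09 in 2-4 h control, a reversed difference of 6 at 0-2 h, 16.0%, 75.9% and 26.6% of 2-4 h control, 0-2 h control and 0-2 h CLAMP RNAi genes found in the paired CLAMP RNAi list, 13 genes in each list and 187 in none. Lists of equal length gave 83 genes and a ratio of 2.10 in 2-4 h control and 65 genes in 0-2 h control, differences of -26 (2-4 h), 18 (0-2 h, reversed) and -26 (ages, CLAMP RNAi), and 39.8% and 80.0% of 2-4 h control and 0-2 h genes with a CLAMP RNAi peak. Counting loci gave 37, 78, 62 and 79, a ratio of 1.86 in 2-4 h control, differences of -41 (2-4 h), -25 (ages, CLAMP RNAi) and -1 (ages, control, reversed), and 60 loci without a peak. Without 2R, 91 2-4 h control and 81 0-2 h control genes had a peak, and differences were -53, -11 and 10 (ages, control). Fewer peaks, shorter windows or fewer units explain the lower counts by construction. The cause of the reversals was not tested, and the score cut-off of 50 is not like for like across lists. No paired analysis was possible because each group had 1 list. Depth, replicate spread and read placement at repeated tRNA copies are not given in the sources used here, and their part in absent peaks was not tested.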
